A study of Ovis aries with 6 samples.

Results

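Expression of 4 genes of the inner root sheath, the keratins KRT25 and KRT27, the enzyme PADI3 and the transcription factor GATA3, was followed in the skin of newborn Hu lambs. They were found by their RefSeq accessions, which put 7 probes on the array under these 4 genes, out of 15008 probes and 500 genes that could be named in this way. KRT25 (NM_001009739), PADI3 (NM_001009791) and GATA3 (NM_001252183) had 2 probes each and KRT27 (NM_001114763) had 1 probe. Each probe was printed as 1 spot per array.

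The study compared dorsal skin of 3 lambs with a large wave coat and 3 lambs with a small wave coat, all of the Hu breed and all 2 days old, with 1 lamb per one-colour (Cy3) array. Lambs are numbered 1 to 3 within a group by the replicate number of their label. Hu sheep are kept in China for the wavy pelt of the newborn lamb, and the comparison asks which genes of hair follicles differ between coat patterns. No treatment or allele is named for either group. According to the design text, all lambs had 1 sire, and each large wave lamb had a small wave partner from the same dam. The samples are whole skin, so that fewer cells of a type and less RNA per cell cannot be told apart.

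The inner root sheath is the sleeve of cells that surrounds the growing hair shaft and moulds it. It hardens before the shaft does and breaks down higher in the follicle, and because it sets the outline of the channel in which the fibre forms, it is of interest in curly and wavy coats. GATA3 is a transcription factor needed for the inner root sheath lineage in mouse follicles, and it also acts in epidermis and in T cells. KRT25 and KRT27 are type I keratins of the sheath, which pair with type II keratins to build its filaments. PADI3 is a peptidylarginine deiminase that converts arginine to citrulline, and one of its substrates is trichohyalin, the protein in which sheath filaments become embedded. In the reference gene table KRT25, KRT26, KRT27 and KRT28 follow one another as neighbouring genes. PADI3 lies between PADI4 and PADI1. Near-identical stretches between neighbouring keratins could share probe signal, and this was not tested. Whether the whole skin signal of KRT25, KRT27, PADI3 or GATA3 came from the sheath alone was not tested either.

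All 7 probes were well above background on all 6 arrays and none was saturated. The arrays differed in brightness: the 75th percentile of the signal, taken as the measure of it, ranged from 205 to 392 in the large wave group and from 94.7 to 285 in the small wave group, a 4.13-fold range over the 6 arrays. Every large wave lamb gave a brighter array than the small wave lamb of its own number, by 0.46, 0.43 and 1.40 on the log2 scale. Values are therefore given as the processed signal, an intensity in scanner units, and as the log2 scaled signal, which is the log2 processed signal minus that of the array's 75th percentile. All arrays were on 1 slide and were scanned together. Large wave lambs 2 and 3 and small wave lamb 1 were in row 1 of the slide and the others in row 2. Row was thus unevenly spread over the coat patterns. The median signal of the spike-in control spots was 543 to 783 over the arrays. It was 701 on the brightest array and highest, at 783, on the dimmest, small wave lamb 3, so it did not follow the 75th percentile. The reason was not tested.

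None of the 4 genes passed the test between coat patterns. In limma, 0 of 10047 probes (0%) had an adjusted p under 0.05, and 384 (3.82%) had an unadjusted p under 0.05, 155 higher (1.54%) and 229 lower (2.28%) in large wave skin. With normexp correction (offset 50) of the median spot signal and quantile normalization together, called the normexp setting below, these were 216 and 162, and without scaling between arrays 342 and 2. With the replicate number as a block the count was 577, of which 269 were higher. PADI3 had higher values in large wave skin and the other 3 genes had lower values at the probe that represents each of them, the one with the highest mean. Over all probes tested 48.7% had higher values, with a median difference of -0.020, while the median over the 4 genes was -0.31. Among all 346 named genes tested, each at its representing probe, 139 had higher values and the median was -0.15. The direction of KRT27 and GATA3 depended on the processing, as given for each below, and the 2 probes of KRT25 had opposite signs.

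**Figure D1:**
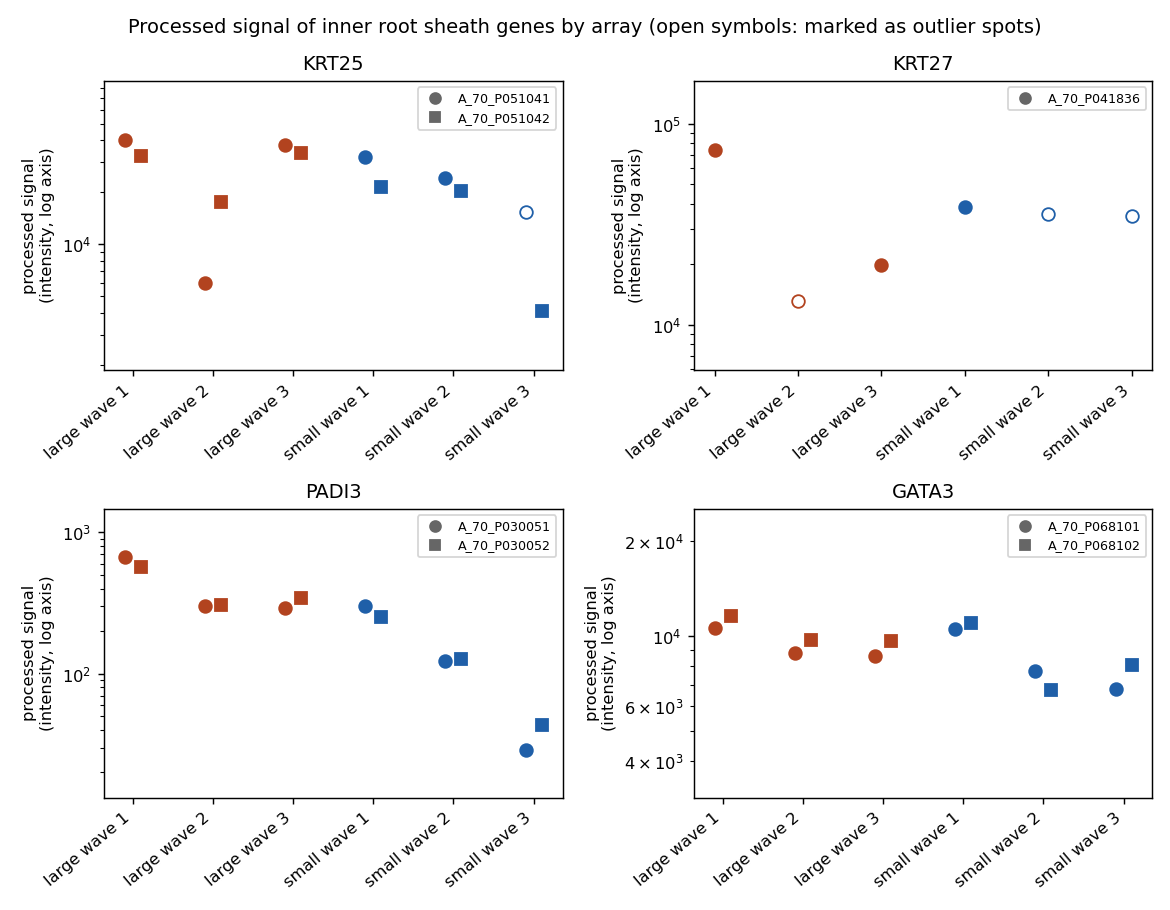
Processed signal (scanner intensity, log axis) of each probe on each of the 6 arrays, in a panel per gene, with large wave lambs in red and small wave lambs in blue and with open symbols for spots marked as outliers. GATA3 stays between 6725 and 11533 on all arrays, while PADI3 falls from 668 to 29.1.

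KRT25, a keratin of all layers of the inner root sheath, was read differently by its probes. At probe A_70_P051041 the processed signal was 40081, 5947 and 37673 in large wave lambs 1 to 3, and 32076, 24096 and 15319 in small wave lambs 1 to 3, the last from a spot that the scanner software had marked as an outlier. At probe A_70_P051042 it was 32572, 17659 and 33788 in large wave skin and 21613, 20405 and 4115 in small wave skin. The first probe was lowest in large wave lamb 2 and the second in small wave lamb 3, and the groups overlapped at both.

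On the log2 scaled signal, A_70_P051041 averaged 6.26 ± 1.24 in large wave skin (SD, n = 3) and 7.06 ± 0.35 in small wave skin (n = 2, without the marked spot). The difference of -0.80 ± 0.71 (SE, 95% confidence interval -2.49 to 0.89, limma adjusted p = 0.783) was smaller than the spread between large wave lambs. Without large wave lamb 2 the difference was -0.10, and with the replicate number as a block it was -1.29. A_70_P051042 had means of 6.63 ± 0.39 (large wave) and 6.25 ± 0.81 (small wave; SD, n = 3 each), a difference of 0.38 ± 0.46 (SE, 95% confidence interval -0.69 to 1.45, limma adjusted p = 0.823). Without small wave lamb 3 it was -0.026. Each sign for KRT25 thus rested largely on 1 array, and a different one for each probe.

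The disagreement of the KRT25 probes was confined to those 2 arrays among the 6. A_70_P051041 minus A_70_P051042 on the log2 scale was between 0.16 and 0.57 on the other 4 arrays, -1.57 in large wave lamb 2 and 1.90 in small wave lamb 3. This contrast between probes had an SD of 1.11 over the 6 arrays for KRT25, with the marked spot kept. The same SD was 0.31 for PADI3 and 0.16 for GATA3. Among the 126 named genes with 2 probes above background its median was 0.62, with quartiles of 0.39 and 0.91. In 19 of those genes the probes agreed less well than in KRT25, in 18 better than in PADI3 and in 4 better than in GATA3.

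**Figure D2:**
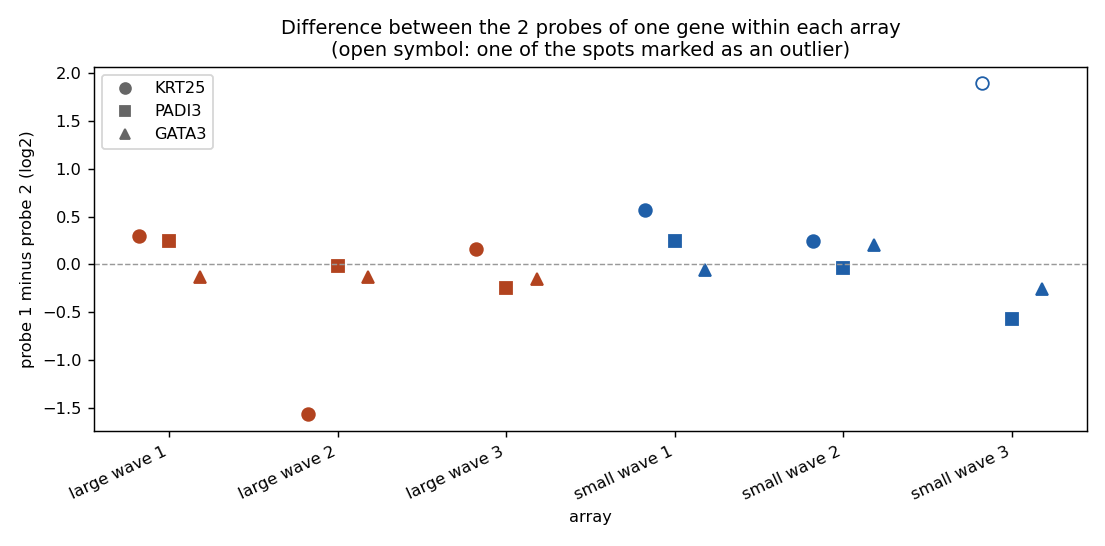
Log2 difference between the 2 probes of KRT25, PADI3 and GATA3 within each array (the probe with the lower number minus the other), with large wave lambs in red, small wave lambs in blue and an open symbol where one of the spots was marked as an outlier. The KRT25 probes part in large wave lamb 2 (-1.57) and small wave lamb 3 (1.90), while PADI3 and GATA3 lie between -0.58 and 0.24 on all arrays.

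KRT27, the neighbouring type I sheath keratin, had a processed signal of 73948, 13079 and 19721 in large wave lambs 1 to 3 and of 38568, 35555 and 34574 in small wave lambs 1 to 3. The scanner software marked 3 of these 6 spots as outliers, those of large wave lamb 2 and of small wave lambs 2 and 3. Such marks were common on bright spots: with the probes in 10 equal classes by signal, in the brightest class 36.2% had at least 1 marked array and 3.48% had 3 or more. Before scaling, the small wave signals lay close together and the large wave signals spread widely, with the highest and the lowest value of all 6 arrays among them. After scaling, with marked spots kept, the SDs were similar (0.83 and 0.72 for large and small wave) and small wave lamb 3 was highest.

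Only 1 small wave value of KRT27 remained without the marked spots. The log2 scaled signal then averaged 6.93 ± 0.89 in large wave skin (SD, n = 2) and stood at 7.08 in small wave lamb 1, a difference of -0.15 ± 0.73 (SE, 95% confidence interval -2.06 to 1.77, limma adjusted p = 0.965), with no spread of the small wave group behind it. With the marked spots kept, the means of KRT27 were 6.62 ± 0.83 (large wave) and 7.82 ± 0.72 (small wave; SD, n = 3 each). The difference was then -1.20 ± 0.56 (SE, 95% confidence interval -2.49 to 0.095, limma adjusted p = 0.769), which is 2.30-fold lower in large wave skin. The scaled values were 7.56, 5.998 and 6.31 in large wave and 7.08, 7.87 and 8.51 in small wave lambs 1 to 3. They overlapped through the lambs numbered 1, where large wave minus small wave was 0.48, while it was -1.87 and -2.21 in the pairs numbered 2 and 3. With the replicate number as a block and the marked spots left out, only the first pair counts and the difference was 0.48. It was 0.10 under the normexp setting. In the authors' deposited table, which holds all 6 spots including the marked ones, it was -0.76, and after quantile normalization without the marked spots -0.20.

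PADI3, the modifying enzyme, was the member with the smallest unadjusted p, and the only one whose scaled signal did not overlap between groups at either probe. At probe A_70_P030052 the processed signal was 564, 304 and 344 in large wave lambs 1 to 3 and 254, 126 and 43.3 in small wave lambs 1 to 3. At A_70_P030051 it was 668, 302 and 289.6 against 300.0, 123 and 29.1, where before scaling small wave lamb 1 stood above large wave lamb 3. The lowest value at both probes was that of small wave lamb 3, the dimmest array. These values were near background: the median spot signal was 87 at A_70_P030052 and 56 at A_70_P030051, over median backgrounds of 29 and 27.

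After scaling, A_70_P030052 stood at 0.53, 0.57 and 0.47 in large wave and at -0.17, -0.27 and -1.13 in small wave lambs 1 to 3. The 3 large wave lambs lay close together, and all above the small wave lambs. The means were 0.52 ± 0.05 and -0.52 ± 0.53 (SD, n = 3 each), a difference of 1.04 ± 0.35 (SE, 95% confidence interval 0.23 to 1.86) or 2.06-fold, with an unadjusted p of 0.018 and an adjusted p of 0.777 in limma. At A_70_P030051 the means were 0.52 ± 0.28 and -0.65 ± 0.94, a difference of 1.16 ± 0.49 (SE, 95% confidence interval 0.027 to 2.30, unadjusted p = 0.046 and adjusted p = 0.777 in limma). Of all probes tested, 4.99% had groups that did not overlap with large wave higher, 4.87% among those with 6 values, and 1.54% were higher with an unadjusted p under 0.05.

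PADI3 was higher in the large wave lamb of each pair, by 0.70, 0.84 and 1.59 at A_70_P030052 and by 0.69, 0.87 and 1.92 at A_70_P030051 in pairs 1 to 3. As the scaled groups did not overlap, any pairing of the lambs would give this direction. The third pair, which had the largest gap in brightness, also had the largest gap in PADI3. Without small wave lamb 3 the differences were 0.74 and 0.63. With slide row as a block they were 0.96 and 1.05 (limma unadjusted p = 0.051 and 0.099). With array brightness as a covariate they were 0.73 and 0.49, under the normexp setting 0.49 and 0.73, and without scaling 1.80 and 1.92, where the median of all probes was 0.74. Its direction was the same under each of the 19 alternatives at each probe, and it passed the adjusted threshold under none. Many of these could not change the direction. As the groups did not overlap, leaving out any array had to keep it. The filters, the fit without a variance trend, marked spots kept and the replicate block left the estimates unchanged. With the block the SE was 0.33 at A_70_P030052 and 0.36 at A_70_P030051 (limma unadjusted p = 0.019 and adjusted p = 0.625 at each).

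GATA3, the transcription factor, had nearly the same unscaled signal in all 6 lambs. At probe A_70_P068102 the processed signal was 11533, 9678 and 9604 in large wave lambs 1 to 3 and 10982, 6725 and 8108 in small wave lambs 1 to 3. At A_70_P068101 it was 10562, 8818 and 8662 against 10535, 7749 and 6795. The highest and the lowest array differed 1.71-fold and 1.55-fold at these probes, against 4.13-fold for the brightness of the arrays, and the groups overlapped at both.

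After scaling, the mean of GATA3 was lower in large wave skin. The log2 scaled signal of A_70_P068102 had means of 5.24 ± 0.34 (large wave) and 5.72 ± 0.62 (small wave; SD, n = 3 each), a difference of -0.48 ± 0.39 (SE, 95% confidence interval -1.38 to 0.42, limma adjusted p = 0.779). A_70_P068101 averaged 5.10 ± 0.34 and 5.68 ± 0.48, a difference of -0.58 ± 0.35 (SE, 95% confidence interval -1.40 to 0.24, limma adjusted p = 0.777). Without scaling the signs were reversed, at 0.28 and 0.18, which is -0.46 and -0.56 relative to the median shift of all probes, 0.74. With array brightness as a covariate the differences were 0.052 and -0.11, after quantile normalization -0.18 and -0.23, and without small wave lamb 3 they were -0.13 and -0.34. Within pairs 1 to 3 the scaled differences were -0.39, 0.098 and -1.15 at A_70_P068102 and -0.46, -0.24 and -1.05 at A_70_P068101, so that 2 and 3 of the 3 large wave lambs had the lower value.

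**Figure D3:**
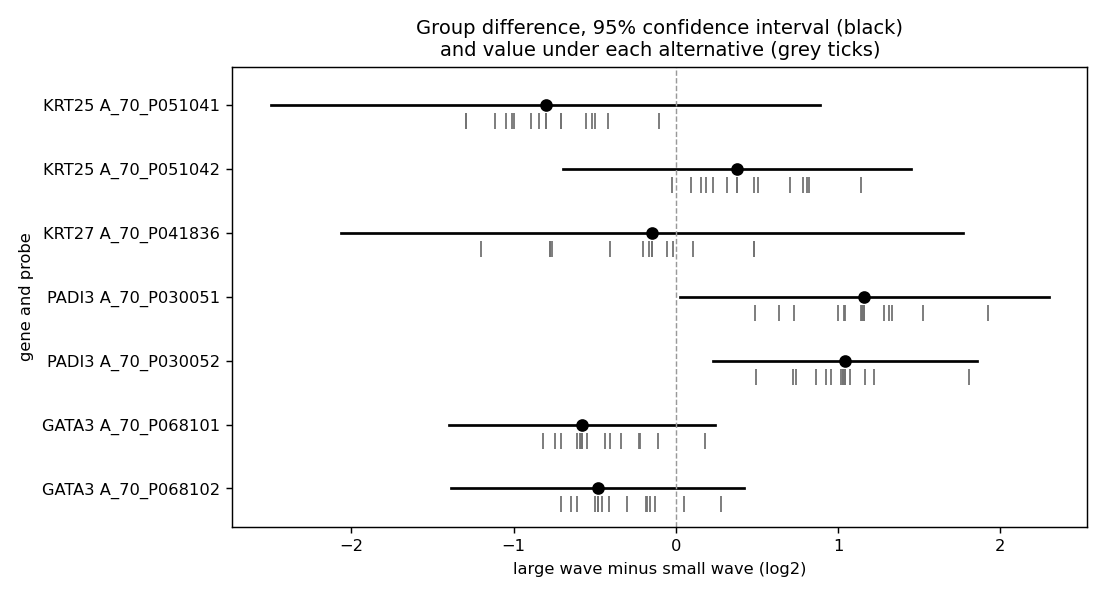
Large wave minus small wave difference of the log2 scaled signal for each of the 7 probes (black points, with 95% confidence intervals as black lines) and the value under each alternative processing (grey ticks). The intervals of the 2 PADI3 probes, 0.23 to 1.86 and 0.027 to 2.30, lie above 0, and those of the other 5 probes span it.

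The scaled signals of PADI3 and GATA3 ran in opposite directions along array brightness, while before scaling both were highest on the brightest array. Across the 6 arrays the log2 scaled signal of GATA3 correlated with the log2 75th percentile at r = -0.94 at A_70_P068102 (exact permutation p = 0.0056, two-sided, adjusted p = 0.014 over the 5 probes with all spots unmarked; rho = -0.89, exact permutation p = 0.033, adjusted p = 0.083). At A_70_P068101 r was -0.99 (exact permutation p = 0.0028, adjusted p = 0.014; rho = -0.94, exact permutation p = 0.017, adjusted p = 0.083). Without the brightest and the dimmest array, large wave lamb 1 and small wave lamb 3, r was -0.72 and -0.94. The 75th percentile is subtracted in the scaled signal, so a probe with a constant signal has r = -1 by construction. The permutation p-values, here and for PADI3 and KRT25 below, do not allow for that subtraction. They are therefore no test of a relation beyond it. Over 10048 probes the median r was -0.008, and 28 had a lower r than A_70_P068101.

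For PADI3 the same relation was r = 0.80 at A_70_P030052 (exact permutation p = 0.056, two-sided, adjusted p = 0.069; rho = 0.60, exact permutation p = 0.24, adjusted p = 0.30). At A_70_P030051 it was r = 0.89 (exact permutation p = 0.014, adjusted p = 0.023; rho = 0.77, exact permutation p = 0.10, adjusted p = 0.17). Without the same pair of arrays r was 0.23 and 0.44. The remaining arrays are few and span a narrower range of brightness, which can lower r by itself. The drop therefore does not show that the relation of PADI3 rested on that pair. Of all probes 13.7% had r above 0.8 and 8.29% below -0.9. KRT25 at A_70_P051042 had r = 0.40 (exact permutation p = 0.44, adjusted p = 0.44; rho = 0.086, exact permutation p = 0.92, adjusted p = 0.92) and -0.52 without those arrays. As large wave arrays were the brighter of each pair, brightness moved with coat pattern, and its part in the differences of PADI3 and GATA3 was not tested beyond the covariate.

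**Figure D4:**
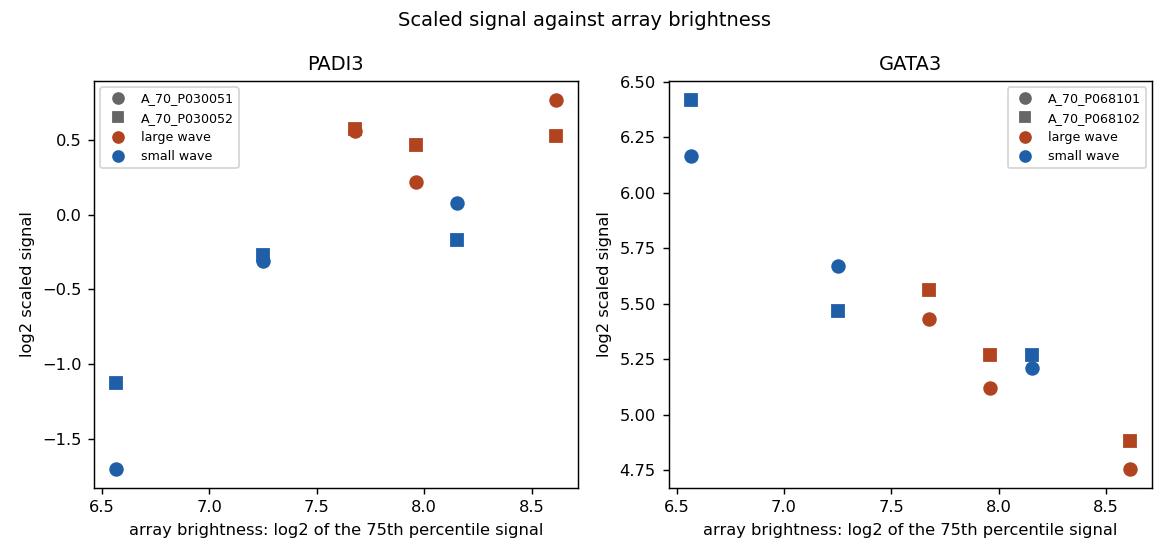
Log2 scaled signal of PADI3 (left) and GATA3 (right) against array brightness, the log2 of the 75th percentile signal, with large wave lambs in red, small wave lambs in blue and a symbol for each probe. PADI3 is lowest and GATA3 highest on the dimmest array, small wave lamb 3. Small wave lamb 1 lies within the brightness range of the large wave arrays. PADI3 there is 0.075 at A_70_P030051 and -0.17 at A_70_P030052, against 0.22 and 0.47 in large wave lamb 3. A single array is no test of the part of brightness.

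Any single scaling factor of an array cancels in a contrast between members within that array. Quantile normalization, background correction and a brightness covariate do not cancel. At the representing probes, PADI3 differed by 0.49 and GATA3 by -0.16 under the normexp setting, against 1.04 and -0.48 in the main setting. PADI3 minus GATA3, at the representing probes, was -4.35, -4.99 and -4.80 in large wave lambs 1 to 3 and -5.44, -5.74 and -7.55 in small wave lambs 1 to 3. The groups did not overlap, and the means of -4.72 ± 0.33 and -6.24 ± 1.14 (SD, n = 3 each) differed by 1.52 on the log2 scale. Such a gap was not rare: of 9219 other probes, 7.52% had a contrast to GATA3 that was higher in large wave skin without overlap, and 50.7% had a contrast to PADI3 that was lower without overlap. KRT25 at A_70_P051041 minus PADI3 was 5.74 ± 1.29 in large wave lambs and 7.28 ± 0.42 in small wave lambs (SD, n = 3 and 2), a difference of -1.54 without overlap, and of -1.94 with the marked spot kept. Its lowest value, 4.29, was that of large wave lamb 2, where the KRT25 probes disagreed. At the other KRT25 probe, A_70_P051042, the contrast to PADI3 overlapped between groups. KRT27 minus PADI3 was 6.44 ± 0.84 in 2 large wave lambs and 7.25 in 1 small wave lamb, a difference of -0.81. With its 3 marked spots kept it was 6.10 ± 0.83 and 8.34 ± 1.21, a difference of -2.24, also without overlap. The structural keratins and GATA3 overlapped between groups in all their contrasts to one another. None of these contrasts was tested.

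Across the 6 arrays the genes of the inner root sheath did not share 1 pattern. With marked spots kept, KRT27 and KRT25 at A_70_P051041 correlated at r = 0.65, and KRT27 and KRT25 at A_70_P051042 at r = -0.50. PADI3 and GATA3 correlated at r = -0.81 at their representing probes and at r = -0.85 after the group means were taken out. PADI3 correlated with KRT27 at r = -0.81 and with KRT25 at A_70_P051042 at r = 0.62. These values describe 6 points that share the brightness of the arrays. The probes of PADI3 correlated with each other at r = 0.96 and those of GATA3 at r = 0.95, but those of KRT25 at r = 0.030.

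Among the named genes with 6 values, those most like PADI3 were SHMT1 (r = 0.98), a serine hydroxymethyltransferase, CDK2 (r = 0.96), a cell cycle kinase, and PUS1 (r = 0.96), a pseudouridine synthase. Among those most like GATA3 were INHBA (r = 0.98), an activin subunit, and SERPINC1 (r = 0.97), antithrombin. These neighbours followed array brightness as their members did, with r from 0.83 to 0.85 for those of PADI3 and of -0.94 and -0.93 for those of GATA3. This follows largely from their choice by likeness to the member on the same arrays. With marked spots kept, KRT25 at A_70_P051041 was most like SLIRP (r = 0.98), UBQLN1 (r = 0.94) and PDXK (r = 0.92), and KRT27 was most like CALM2 (r = 0.96), PURA (r = 0.96) and LOC443441 (r = 0.94). No gene stood in the list of more than 1 member.

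Of 31 genes written down for the inner root sheath and its hardening, among them type II sheath keratins, trichohyalin and transglutaminases, the 4 described here were those named on the array, and 0 of 4 passed in either direction. Of 9 markers of the inner root sheath 3 were named on the array, KRT25, KRT27 and GATA3, and all 3 were well above background on all 6 arrays. Hair shaft keratins and keratin-associated proteins, which build the fibre inside the sheath, had 6 named genes, all above background on all arrays, with 4 higher, 2 lower and 0 past the test. GATA3 is also made by T cells and in epidermis. Of 7 immune markers 3 were named on the array and 2 were tested, both with lower values in large wave skin and neither past the test. Of these CD3E, a T cell marker, had a difference of -0.64 ± 0.57 (SE, 95% confidence interval -1.97 to 0.69), while CD4, carried by some T cells, was well above background on 1 array and was not tested. Of 11 epidermal markers 2 were named on the array and 1 was tested, SFN, with a difference of -1.12 ± 0.45 (SE, 95% confidence interval -2.25 to -0.0039, n = 4 arrays, limma adjusted p = 0.777). The part of these cells in the GATA3 values was not tested.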

How the data were processed

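Total RNA of dorsal skin from 6 lambs was amplified and labelled with Cy3, per the labels' protocols. The deposited scanner files hold intensity values written by Agilent Feature Extraction; the version is 10.7.3.1 in the headers of the files and 10.7 per the submitters' processing notes, and the array design is 019921. The processed signal is an intensity that the scanner software had background-subtracted and further corrected, and marks for outlier, saturated and well-above-background spots were deposited beside it as other values. The value table that the authors deposited, used as an alternative, is on a log2 scale with a median of 4.95 in each column. How it was normalized is not stated in the labels or in the table, but it correlated with quantile-normalized log2 processed signals, marked spots kept, at r of 0.99999 or more on each array, so it is close to a repeat of that alternative.

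Log2 processed signals were reduced by each array's 75th percentile over 15208 spots without controls. Marked outlier spots were left out. The 10048 probes well above background on at least 3 of 6 arrays were kept, and 10047 had a value in both groups. Large wave and small wave were compared with limma 3.58.1 in R 4.3.3 (lmFit, eBayes with a variance trend, no block), with Benjamini-Hochberg adjustment over all probes and a threshold of 0.05; the code was checked on simulated data. With 3 arrays per group, the number of arrays limits the precision. No label says more about separate extractions, so p-values measure the spread between these samples.

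RefSeq accessions were matched without versions to the gene table of assembly ARS-UI_Ramb_v3.0, which named 767 of 786 such probes; other probes are unnamed, and no coordinates are given. The members and lists were chosen with earlier results of these data known. Named were all probes of the members, the listed genes a result turns on, and the 3 named genes most like each member by Pearson's r over 6 arrays, of which 1 is not reported here.

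After subtraction of the group means, lambs of the same number correlated at 0.30, 0.18 and 0.20 over 9220 probes, each above 0.1. They were read as pairs only in the differences within pairs and in the replicate block. The main fit had no block, so its intervals and p-values leave the pairing out. No label states this pairing, and same-numbered arrays also share a column of the slide. Alternatives were other normalizations, filters, designs and each array left out. Added after seeing the data were no scaling, the background-subtracted signal, and likeness with marked spots kept.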

Additional observations from a re-analysis of the deposited data

How the results depend on the processing

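The number of probes past the adjusted threshold of limma was 0 under each of the 19 alternatives. The number of the 4 genes with higher values was 1 in the main setting and 2 under the normexp setting (normexp with offset 50 on median spot signals, then quantile normalization), with the replicate block, when brightness was a covariate and without scaling between arrays; leaving out each array gave 1 to 2, and it was 1 under the remaining alternatives. PADI3 kept its sign under all alternatives at both probes (0.49 to 1.92), as did KRT25 at A_70_P051041 (-1.29 to -0.10). For PADI3, whose groups did not overlap, leaving out an array could not reverse the sign. KRT27 reversed to 0.10 under the normexp setting and to 0.48 with the replicate block, and leaving out each array gave -0.78 to 0.48, with no value without small wave lamb 1. GATA3 reversed without scaling (0.18 at A_70_P068101, 0.28 at A_70_P068102) and at A_70_P068102 with the covariate (0.052). KRT25 at A_70_P051042 ranged from -0.026 to 0.79 with each array left out. The r of PADI3 with KRT25 at A_70_P051042 was 0.80, and with GATA3 -0.61, after quantile normalization. For KRT27 the block leaves 1 pair; otherwise the cause was not tested.

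The count of probes at an unadjusted p under 0.05, 384 in the main setting, was 577 with the replicate block, 142 with slide row as the block, 253 with the brightness covariate, 976 with array weights, 155 without large wave lamb 3, 199 without small wave lamb 3 and 1764 without small wave lamb 1. The replicate block changed no call.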

Other observations

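The scanner files hold the background-subtracted signal beside the processed signal, and the ratio of the latter to the former differed between spots of the same gene. For KRT25 in large wave lamb 3 the processed signal was 1.71 times the background-subtracted signal at A_70_P051041 and 1.16 times at A_70_P051042. For GATA3 at A_70_P068102 the ratio was 0.765 to 0.932 over the 6 arrays, and for KRT27 1.11 to 1.44. For PADI3 in small wave lamb 3 it was 1.53 at A_70_P030051 and 0.997 at A_70_P030052. At A_70_P030052, where the scaled values of large wave lambs lay close together, it was 1.41 in large wave lamb 3. It was 1.04 and 1.06 in large wave lambs 1 and 2. Before scaling, the background-subtracted signal there was 245 in large wave lamb 3 and 259 in small wave lamb 1. Taken from the background-subtracted signal, the differences were -1.11 and 0.23 for the KRT25 probes, -0.057 for KRT27, 0.87 and 1.28 for PADI3 (A_70_P030052 and A_70_P030051), and -0.48 and -0.71 for GATA3 (A_70_P068102 and A_70_P068101), with the sign of the main setting in each.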
